A study of Mus musculus with 3 samples.

Results

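The regions described here are the 561 highest that were called in both of 2 chromatin immunoprecipitation sequencing libraries for SRF, the serum response factor, out of 31850 regions in all. They were selected on the deposited peak heights, that is, the maximum signal within a region: both libraries had a called interval, the mean of the mutant and wildtype heights was at least 80, and the mutant height was below the wildtype height. The mutant library came from the whole cornea of Dstn-corn1 mutant mice and the wildtype library from the whole cornea of wildtype mice, both on a mixed background and aged about 8 weeks. The other library was cornea input with no antibody, and its values were not used here. Because the growth protocol speaks of mutant mice for every library and one title says wildtype, genotype was taken from the titles. Each genotype had 1 library, and the sources used here do not say how many mice it held. Differences below are therefore without a replicate check and without p-values. Depth and any scaling between the libraries are unknown, and intervals for shares and medians cover counting error over regions only. Whole cornea holds epithelium, stroma, endothelium and other cells, and the signal of one cell type in it cannot be told apart from that of another.

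SRF binds DNA as a dimer at a short AT-rich element called the CArG box. With its myocardin-related cofactors (MRTFs) it acts at actin cytoskeleton genes, and with Ets-family ternary complex factors (TCFs) it acts at immediate early genes, which respond quickly to growth signals. Destrin, the product of Dstn, severs and depolymerizes actin filaments, and the state of actin sets how much MRTF is free to enter the nucleus.

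The sequences of the promoters under these regions are shown first, because they show how often the letters of SRF's own site stood near these gene starts, which the heights did not select. The share with an exact CArG box was low and did not differ from that of all promoters beyond its counting interval. RefSeq promoters of build GRCm38 (mm10), 250 bases before to 50 bases after a gene start, were available for 256 of the 319 genes whose start lay within 1 kb of one of the 561 regions. These genes had 318 promoters, and 2 of them (0.629%, exact binomial 95% interval 0.0763 to 2.25%) held an exact CArG box on either strand, against 535 of all 32851 promoters in the table (1.63%), a share inside that interval. The 2 were those of Dusp5, which encodes a phosphatase of ERK kinases, and C2cd5, which encodes a protein of glucose transporter trafficking. The Dusp5 promoter (chr19:53528895-53529194, plus strand) held 2 abutting boxes, the first beginning 82 bases upstream of the start, and the C2cd5 promoter (chr6:143100103-143100402, minus strand) held 1 box 28 bases downstream of the start. Capitals mark the CArG boxes in each.
Dusp5: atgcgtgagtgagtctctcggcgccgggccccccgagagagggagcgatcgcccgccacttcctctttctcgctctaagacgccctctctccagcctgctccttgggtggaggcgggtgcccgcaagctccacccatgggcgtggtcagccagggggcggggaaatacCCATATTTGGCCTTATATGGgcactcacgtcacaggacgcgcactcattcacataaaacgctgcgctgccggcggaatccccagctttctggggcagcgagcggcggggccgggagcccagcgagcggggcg
C2cd5: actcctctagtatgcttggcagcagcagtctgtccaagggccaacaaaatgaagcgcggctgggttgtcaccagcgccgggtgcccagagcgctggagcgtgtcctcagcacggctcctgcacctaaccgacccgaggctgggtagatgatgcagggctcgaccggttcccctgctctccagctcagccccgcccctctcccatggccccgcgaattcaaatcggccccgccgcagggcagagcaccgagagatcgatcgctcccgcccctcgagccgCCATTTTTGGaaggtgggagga

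At the Dusp5 region the mutant height was 88 and the wildtype height 121, and at the C2cd5 region they were 38 in mutant and 192 in wildtype. Dusp5 was thus among the least different of the 561 and C2cd5 among the more different. With 1 mismatch allowed, 20.1% of the 318 promoters held the box, against 21.1% of all promoters. A match is a description of letters in a 300-base window, and the absence of one says nothing of binding, nor of sequence outside the window. The 318 promoters had a median GC content of 62%, against 52.7% over all promoters, and the part of base composition in these shares was not tested.

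Letters at the summits themselves were read where a 101-base window centred on the wildtype summit lay wholly within a RefSeq promoter, which held for 177 of the 561 regions. Short letter strings common to the highest of these windows were chosen after the windows had been seen, so their shares describe the set and test nothing. The windows below are from high regions with many copies of the 4-letter palindrome TCGA (capitals): 4 copies in Snrpb2 (a splicing protein of the U2 particle, chr2:143062926-143063026, plus strand), 3 in Vps13d (a lipid transfer protein, chr4:145194990-145195090, minus strand), 3 in Ercc2 (a helicase of nucleotide excision repair, chr7:19381806-19381906, plus strand) and 2 in Dctn5 (a dynactin subunit, chr7:122132942-122133042, plus strand).
Snrpb2: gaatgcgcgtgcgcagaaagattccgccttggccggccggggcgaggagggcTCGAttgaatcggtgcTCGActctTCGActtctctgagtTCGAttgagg
Vps13d: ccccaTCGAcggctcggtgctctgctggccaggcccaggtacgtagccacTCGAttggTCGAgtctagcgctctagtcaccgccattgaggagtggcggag
Ercc2: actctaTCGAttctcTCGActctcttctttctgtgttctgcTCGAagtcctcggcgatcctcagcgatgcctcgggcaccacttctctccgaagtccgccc
Dctn5: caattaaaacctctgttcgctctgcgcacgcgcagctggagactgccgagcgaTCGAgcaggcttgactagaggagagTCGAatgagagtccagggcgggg

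A second string was the 9-letter core AGNNGGCGC of the motif of CTCF, a zinc finger protein of chromatin loops and insulators. The fuller CTCF core of the first list of motifs was rare, in 2 of the 177 windows (1.13%, 0.137 to 4.02%) and in 12 of the 1723 windows of lower shared regions (0.696%), and in none of the 54 windows of mean height 120 or more, which allows a share of up to 6.60%. The shorter core stood at the summits of Med4 (a Mediator subunit, chr14:73509870-73509970, plus strand, 2 matches), Adprhl2 (an ADP-ribose hydrolase, chr4:126321710-126321810, minus strand), Snx18 (a sorting nexin, chr13:113618606-113618706, minus strand) and Ccdc59 (chr10:105841326-105841426, plus strand). Capitals mark the core on the strand shown, and in Ccdc59 also 1 TCGA.
Med4: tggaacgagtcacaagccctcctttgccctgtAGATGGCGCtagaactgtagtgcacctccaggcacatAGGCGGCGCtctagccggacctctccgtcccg
Adprhl2: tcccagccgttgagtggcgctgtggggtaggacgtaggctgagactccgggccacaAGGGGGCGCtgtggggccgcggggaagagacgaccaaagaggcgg
Snx18: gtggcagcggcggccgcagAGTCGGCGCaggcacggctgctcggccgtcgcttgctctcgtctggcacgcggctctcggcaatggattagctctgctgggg
Ccdc59: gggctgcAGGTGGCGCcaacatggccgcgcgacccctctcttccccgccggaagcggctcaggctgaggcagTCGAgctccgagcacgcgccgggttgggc

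TCGA was concentrated in the very highest windows. It was present in 21 of the 54 windows of mean height 120 or more (38.9%, 25.9 to 53.1%), in 19 of the 123 windows of mean height 80 to under 120 (15.4%, 9.56 to 23.1%) and in 194 of the 1723 windows of lower shared regions (11.3%, 9.80 to 12.8%). At least 2 copies stood in 14 of the 54 (25.9%), in 5 of the 123 (4.07%) and in 15 of the 1723 (0.871%). The longer string AATCGA, which contains TCGA, was present in 12 of the 54 windows (22.2%) and in 20 of the 1723 (1.16%). Over whole 300-base promoters, TCGA was present in 42.1% of the 318 and in 22.0% of all promoters, and AATCGA in 8.81% of the 318 and in 2.33% of all. Other strings with CG were also more frequent in the 318 than in all promoters. CCGAGC stood in 33.0% and in 14.7%, ACGT in 42.5% and in 30.9%, CCGG in 82.7% and in 52.8%, and GCGC in 82.7% and in 47.1%. A higher share over whole promoters was thus not particular to TCGA, and the part of base composition was not tested.

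The 9-letter CTCF core followed height differently. It was present in 4.77% of windows of mean height under 20, in 10.7% from 20 to under 40, in 27.5% from 40 to under 60, in 35.5% from 60 to under 80, in 35.8% from 80 to under 120 and in 22.2% at 120 or more. In all, 56 of the 177 windows (31.6%, 24.9 to 39.0%) held it, against 249 of the 1723 lower ones (14.5%, 12.8 to 16.2%). The CArG box stood in 2 of the 177 windows (1.13%, 0.137 to 4.02%) and in 19 of the 1723 (1.10%). The Ets core CCGGAAG, part of the sites of TCF partners of SRF and of many other Ets factors, stood in 9.04% of the 177 (5.26 to 14.3%) and in 14.2% of the 1723. Of other strings with CG chosen in the same way, CCGAGC also stood more often in the highest windows, in 37.0% of the 54, in 22.8% of the 123 and in 9.87% of the 1723. ACGT stood in 15.8% of the 177 and in 21.6% of the 1723, and CCGG in 61.0% and in 62.0%, while GCGC, which overlaps the CTCF core, stood in 79.7% and in 67.5%.

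**Figure D1:**
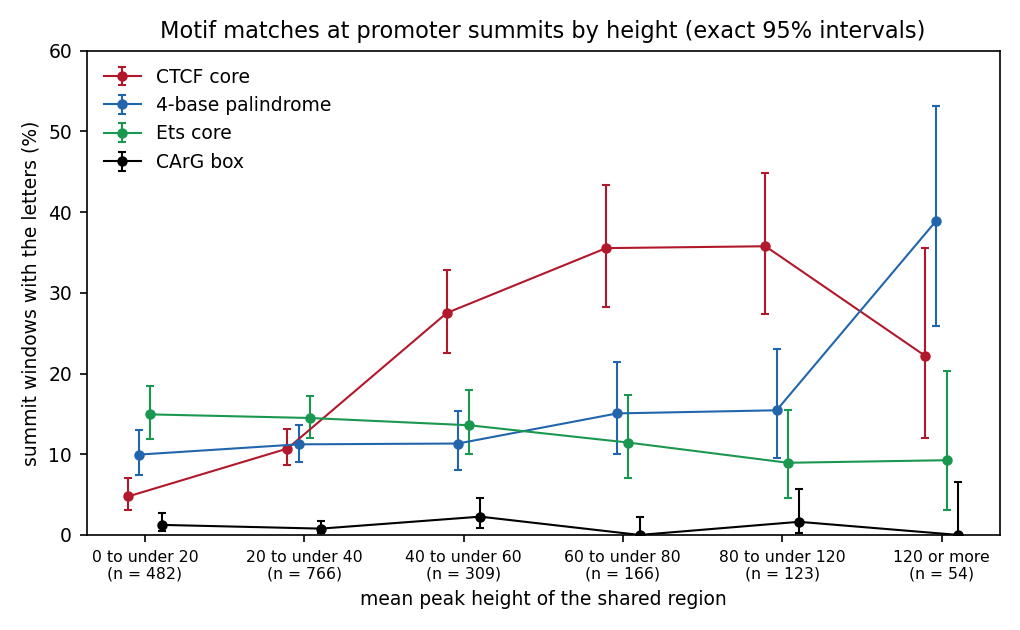
Share of 101-base summit windows in promoters that held each set of letters (y axis, %), by mean peak height of the shared region (x axis), with exact 95% intervals over windows. The 4-base palindrome (TCGA) was at 38.9% in the class of 120 or more, and the CArG box stayed at or under 2.27% in every class. The line named CTCF core is the looser 9-letter string AGNNGGCGC, which reached 35.8% from 80 to under 120.

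The motifs searched on all 300-base promoters included others of known promoter factors. The NRF1 motif stood in 13.5% of the 318 promoters (9.96 to 17.8%) and in 4.60% of all, the Ets core in 21.7% (17.3 to 26.6%) and in 8.86%, and the GC box GGGCGG in 59.4% and in 35.7%. CCAAT stood in 32.4% of the 318 and in 37.4% of all, and the AP-1 site TGANTCA in 4.40% and in 7.81%.

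Heights in these regions had a median of 57 in mutant (lowest 20, highest 173) and of 148 in wildtype (lowest 87, highest 319). The median log2 ratio of mutant over wildtype, with 1 added to each height, was -1.33 (95% interval -1.36 to -1.29), beside -1.10 over all 31850 regions. Mutant heights were at least 2-fold lower in 479 of the 561, and the background was 59.0% of all regions and 48.2% of regions called in both. The rule used these heights, required a lower one in mutant, and admitted regions mainly through wildtype height, so nothing is read from that share. The ratio depended on the scale: when mutant heights were multiplied by 2.1, which gives both libraries the same median over shared regions, the median over all regions became -0.09, that of the 561 became -0.27, and 112 of the 561 were no longer lower in mutant. Every height given as lower in mutant below is on the deposited scale.

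**Figure D2:**
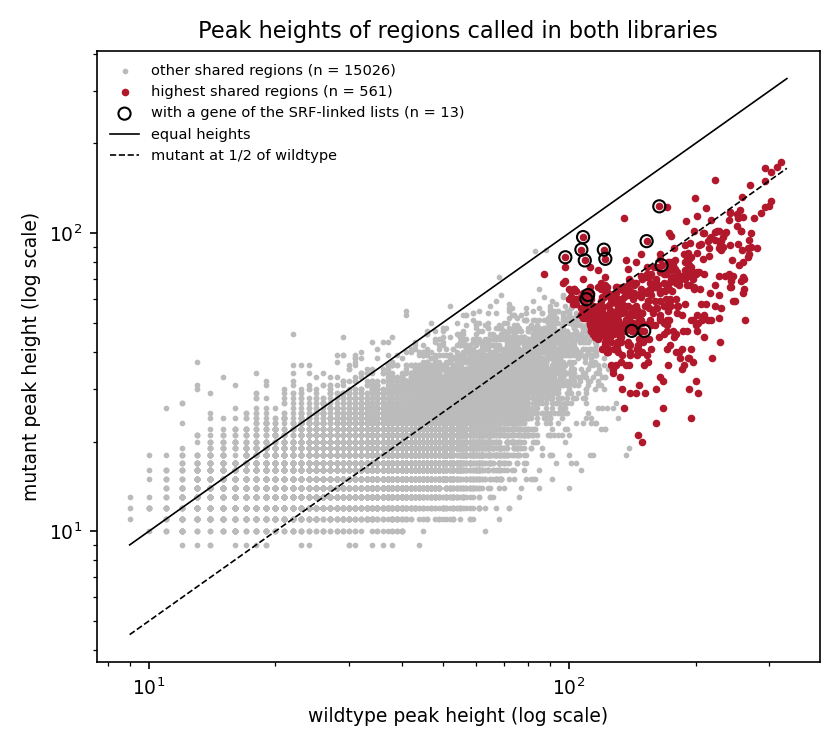
Mutant (y axis) against wildtype (x axis) peak heights, both on log scales, for the 15587 regions called in both libraries, with the 561 highest in red and the 13 of them with a gene from the SRF-linked lists ringed. The 561 fill the upper right below the line of equal heights, as the rule requires, and most ringed regions lie above the dashed line, where mutant height is more than 1/2 of wildtype.

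The threshold cut a continuous range of heights. Just inside, at a mean of 80, stood the regions assigned to Cab39 (46 in mutant and 114 in wildtype), Bcr (58 and 102), Arid3a and Wdr18 (47 and 113) and Aanat and Rhbdf2 (52 and 108), and a region with no gene (73 and 87). Just outside, at 79.5, stood those of Dhrs13 and Phf12 (48 in mutant and 111 in wildtype), Lynx1 (35 and 124), the immediate early gene Nr4a1 (38 and 121) and Cdkn1a (62 and 97), and a region with no gene (53 and 106). Of all 568 regions with a mean of at least 80, 5 were called in wildtype only, among them Sfi1 with 58 in mutant and 198 in wildtype. The other 2 were shared and not lower in mutant: Mpdu1 and Cd68 with 88 in both libraries, and Bcl2l12 and Irf3 with 87 in mutant and 83 in wildtype.

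The highest region lay at Slc39a10, a zinc importer of the plasma membrane (chr1:46852383-46854889), with 173 in mutant and 319 in wildtype. Ddx17, a DEAD-box RNA helicase (chr15:79545639-79547758), had 167 in mutant and 313 in wildtype. The region between Hnrnpa2b1, an RNA-binding protein, and Cbx3, a heterochromatin protein (chr6:51468652-51471067), had 160 in mutant and 303 in wildtype. All 3 lay over a gene start and a CpG island, and in all 3 the mutant height was more than 1/2 of the wildtype height.

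Next came a region over the starts of Gpr137 and Bad, a pro-apoptotic protein of the BCL2 family, with 166 in mutant and 292 in wildtype, and Sept7, a septin of the cytoskeleton, with 150 and 293. Vps13d had 128 in mutant and 303 in wildtype, Epc2, a subunit of a histone acetyltransferase complex, had 123 and 300, and Snx18 had 122 and 293. Dagla, an enzyme that makes the endocannabinoid 2-arachidonoylglycerol, had 145 in mutant and 270 in wildtype. These genes belong to unrelated processes, and none stands in the lists of SRF-linked genes.

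Of the other 11 among the 20 highest, several lay between a pair of genes: Slc25a25 and Naif1 (117 in mutant and 287 in wildtype), Mettl25 and Ccdc59 (112 and 275), Palb2, a partner of BRCA2 in DNA repair, and Dctn5 (89 and 280), and Ptcd1 and Cpsf4, a factor of mRNA 3′ end formation (95 and 268). Others lay at Mrps17 and Gbas (132 in mutant and 258 in wildtype), Gabarap, an autophagy protein (120 and 255), Nudt3 (113 and 259), Gdf15, a stress-induced cytokine (116 and 251), and Dnajc11 (112 and 252). A region with no assigned gene (chr2:37703040-37704329) had 100 in mutant and 271 in wildtype and overlapped the RefSeq promoter window of Strbp. The last, at the multi-copy Rn18s-rs5, had 151 in mutant and 222 in wildtype. On the common scale, 8 of the 20 would not be lower in mutant.

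**Figure D3:**
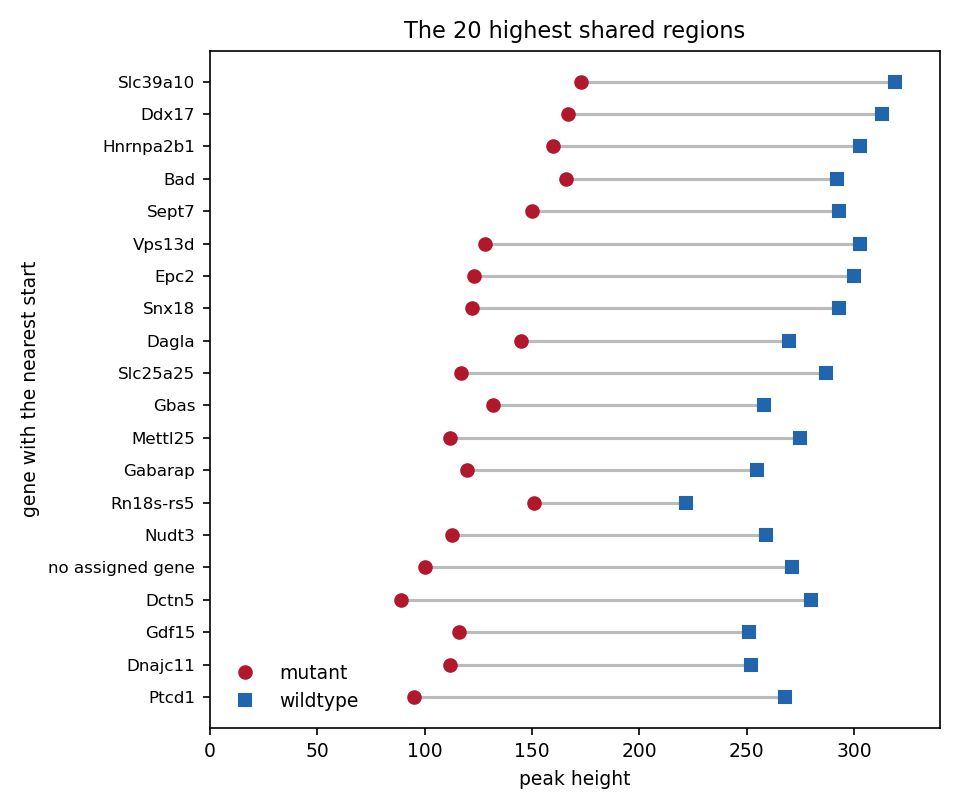
Peak heights (x axis) in mutant (circles) and wildtype (squares) at the 20 highest shared regions, named by the gene with the nearest start (y axis) and ordered by mean height from Slc39a10 down. Mutant heights ran from 89 to 173 and wildtype heights from 222 to 319. The rule selected on these heights, so nothing is read from this gap. On the common scale, 8 of the 20 would not be lower in mutant.

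Gene starts and CpG islands, which the rule did not use, were more frequent among the 561 than among all other regions, and nearly as frequent in the shared regions just below them in height. CpG islands, stretches rich in CG that mark most housekeeping promoters, were annotated in 311 of the 561 (55.4%, 51.2 to 59.6%), against 22.4% of all other regions (21.9 to 22.9%). A gene start lay within 1 kb of 277 (49.4%, 45.2 to 53.6%), against 22.2% of all other regions (21.8 to 22.7%). In the 720 shared regions of mean height 60 to under 80, the shares were 49.3% for islands (45.6 to 53.0%) and 42.9% for starts (39.3 to 46.6%), and both intervals overlap those of the 561. In the 3263 of mean height 40 to under 60 they were 21.3% and 20.4%, so the step lay near a mean height of 60 and not at the threshold of 80. Within the 561, the 54 regions of mean height 160 or more had islands in 85.2% and starts in 75.9%.

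Regions with at least 2 gene starts within 1 kb made up 7.13% of the 561 (5.14 to 9.58%) and 3.52% of all other regions, with 5.14% (3.64 to 7.01%) at a mean height of 60 to under 80, and among the 169 regions of mean height 120 or more they made up 12.4% (7.86 to 18.4%). Regions with no assigned gene made up 14.8% of the 561 (12.0 to 18.0%) and 24.0% of all other regions, with 15.6% at 60 to under 80. Of the 561, 232 (41.4%) lay at neither an island nor a start, against 74.1% of all other regions and 46.5% at 60 to under 80. These 232 include 76 of the regions with no assigned gene. The set therefore held a large group of island promoters beside a second group of sites away from starts.

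**Figure D4:**
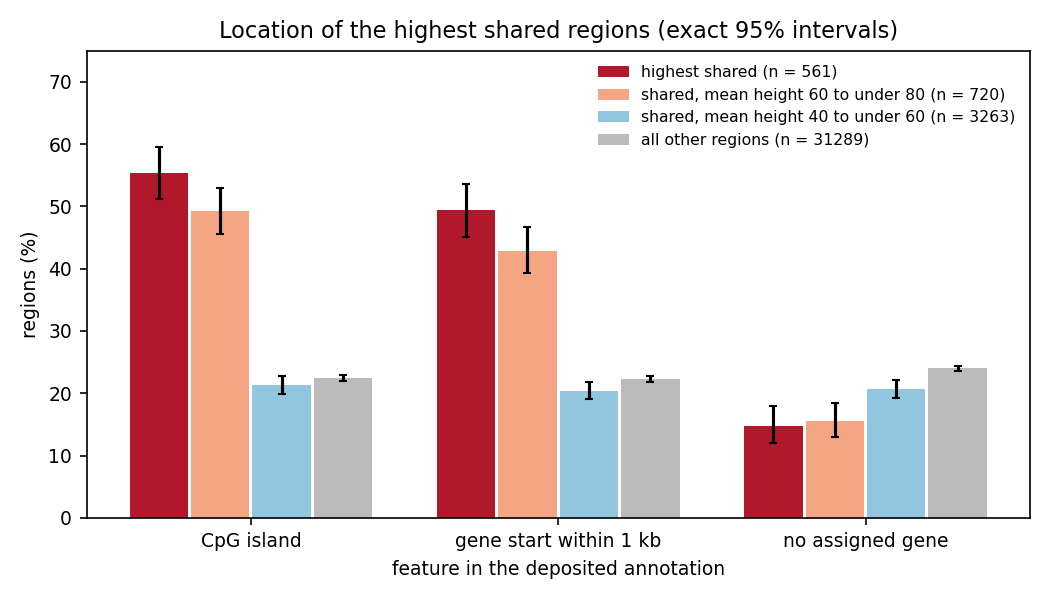
Share of regions (y axis, %) with a CpG island, with a gene start within 1 kb and with no assigned gene, in the highest shared regions, shared regions of mean height 60 to under 80, shared regions of mean height 40 to under 60 and all other regions, with exact 95% intervals over regions. For islands and starts the highest shared regions stood at 55.4% and 49.4% and the class just below at 49.3% and 42.9%, with overlapping intervals, while the other sets lay between 20.4% and 22.4%.

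Regions at promoters had the lowest median ratio of mutant to wildtype of the 3 locations. The 277 with a start within 1 kb had median heights of 55 in mutant and 154 in wildtype and a median log2 ratio of -1.40 (-1.49 to -1.33). The 232 at neither a start nor an island had 59 in mutant and 144.5 in wildtype and a median of -1.26 (-1.32 to -1.22), and the 52 islands away from starts had 64.5 in mutant and 138 in wildtype and a median of -1.24 (-1.41 to -1.06), an interval that overlaps both others. The 40 regions with at least 2 starts within 1 kb had 62.5 in mutant and 200 in wildtype and a median of -1.55 (-1.80 to -1.29). Mutant heights at least 4-fold lower were seen in 48 of the 561 (8.56%), against 8.75% of all regions and 1.10% of other regions called in both. Of the 48, 40 lay at promoters (14.4% of 277) and 4 at neither a start nor an island (1.72% of 232). These ratios are part of what chose the set and carry no test.

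The 15 regions of lowest ratio carried genes of unrelated kinds. Shox2, a homeobox factor, with Rsrc1, a splicing-related gene, had 24 in mutant and 195 in wildtype. Tug1, a long noncoding RNA, with Morc2a had 20 in mutant and 149 in wildtype. Pex13, a peroxisome import protein, with Pus10, a pseudouridine synthase, had 23 in mutant and 161 in wildtype. In each the mutant height lay in the lowest part of the range of the 561, while the wildtype height lay near or above the median of 148.

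Other regions of very low ratio were at Tbc1d14 (29 in mutant and 203 in wildtype), Wdr12, a ribosome biogenesis factor, with Carf (21 and 146), Heatr5a (30 and 193), Ntrk2, a neurotrophin receptor (26 and 167), and Eif2b3, a subunit of the exchange factor of translation initiation (32 and 200). Ndufa5, a subunit of respiratory complex I, with Asb15 had 38 in mutant and 219 in wildtype, and Kdm8 had 43 and 229. Also among the 15 lowest were Fan1, a nuclease of crosslink repair (37 in mutant and 197 in wildtype), Kcnk9, a potassium channel (35 and 186), and Stoml1 and Pml (29 and 152). None of the 48 regions at least 4-fold lower in mutant had a gene from those lists of SRF-linked genes. Such genes were carried by only 2.32% of the whole set, so 48 regions are too few to read anything from this absence. The ratio also uses the heights that chose the set.

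At the other end, 10 of the 561 had a log2 ratio above -0.5, and 6 of these 10 had a gene from the SRF-linked lists. Such genes were carried by 2.32% of the 561 and by 0.970% of all regions. The ratio uses the heights that chose the set, and the lists were drawn up with earlier results known, so this count is a description. Fos, an AP-1 subunit, had 97 in mutant and 108 in wildtype at a region 12140 bp from its start. Junb, another AP-1 subunit, had 83 in mutant and 98 in wildtype. Egr1, a zinc finger factor of the growth response, had 123 in mutant and 164 in wildtype, and its relative Egr3 had 81 and 109.

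The other SRF-linked regions among the 10 were Dusp5 (88 in mutant and 121 in wildtype) and the region of Mus81 and Cfl1, the filament-severing protein cofilin-1 (88 and 107). The remaining 4 were Map3k14, a kinase of NF-kappaB signalling (122 in mutant and 171 in wildtype), the repeated small RNA gene Rn4.5s (112 and 135), and 2 regions with no assigned gene on chromosome 1 (73 and 87, and 77 and 98). The nearest below them were Cdk9, the kinase of transcription elongation (69 in mutant and 98 in wildtype), Fbxo46 (68 and 97), Ocel1 and Use1 (77 and 112), Rn18s-rs5 (151 and 222) and the immediate early gene Ier2 (82 and 122). Multi-copy genes such as Rn18s-rs5 and Rn4.5s collect reads that a caller cannot place uniquely, so their heights are uncertain.

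The lists of SRF-linked genes were drawn up with earlier results of these data known, so their counts are a description. In all, 13 of the 561 carried a gene on these lists (2.32%, 1.24 to 3.93%), against 309 of all 31850 regions (0.970%), and 5 of the 13 lay within 1 kb of the start. Their median log2 ratio was -0.57, against -1.33 for the 561, and 3 of the 13 were at least 2-fold lower in mutant. On the common scale, 10 of the 13 would not be lower in mutant.

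By role, immediate early and TCF-linked genes accounted for 6 of the 13: Egr1, Fos, Junb, Egr3, Dusp5 and Ier2. They made up 1.07% of the 561 (0.393 to 2.31%), and regions of that list made up 0.254% of all regions. The list of actin cytoskeleton and MRTF-linked genes had 124 regions, and 2 of them were among the 561, which is 0.357% of the 561 against 0.389% of all regions and so near the background: Actb, beta-actin, with 94 in mutant and 153 in wildtype, and Csrp1, a LIM protein of actin bundles, with 78 and 166. The Csrp1 region lay 23887 bp from its start.

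Genes of actin filament turnover accounted for 5 (0.891%, 0.290 to 2.07%, against 0.273% of all regions). Cfl1 is given above, and Coro1c, a coronin that binds actin, had 60 in mutant and 110 in wildtype. The formin gene Diap1 had 3 regions, with 47 in mutant and 151 in wildtype, 47 and 141, and 62 and 111, and the second of these also carried Hdac3. In the same order, they lay at 51740, -185 and 82952 bp from the Diap1 start. None of the 17 regions assigned to SRF itself or its cofactors was among the 561. These 17 made up 0.0534% of all regions, a number too small to read. The 3 regions of Srf had 48 in mutant and 51 in wildtype, 36 and 41, and 8 and 21. The 3 regions of Dstn were listed at 0 in mutant, and had 35, 11 and 13 in wildtype. The mutant mice carry their mutation in Dstn itself, and the state of the DNA there was not tested. These zeros are therefore not read as lost SRF signal.

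**Figure D5:**
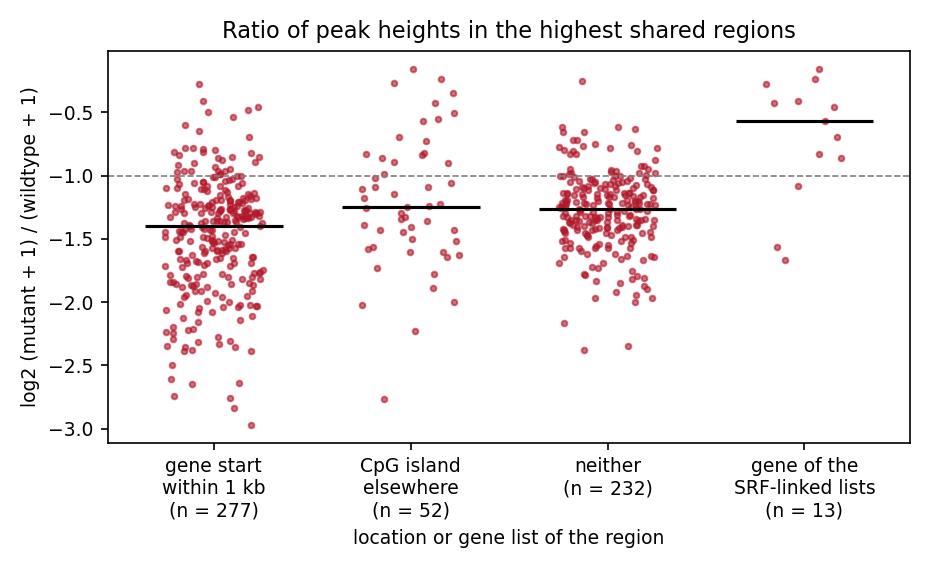
Log2 ratio of mutant over wildtype peak height with 1 added to each (y axis), a point for each of the 561 regions by location and, in the right column, again for the 13 with a gene from the SRF-linked lists. Black lines are medians, at -1.40 for starts within 1 kb, -1.24 for islands elsewhere, -1.26 for neither and -0.57 for the 13, and the dashed line marks a 2-fold lower mutant height.

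Gene families of RNA and protein synthesis were present in several regions, but not every related list exceeded its share of all regions. RNA-binding and splicing genes were carried by 1 of the 561 (0.178%), that of Hnrnpa2b1, against 0.273% of all regions. Ubiquitin E2 genes, listed by symbol prefix, were also carried by 1 (0.178%, against 0.214% of all regions). Genes of cytoplasmic ribosomal proteins were carried by 11 of the 561 (1.96%, 0.983 to 3.48%), against 0.543% of all regions. Rpl22 had 72 in mutant and 246 in wildtype, Rpl9 had 72 and 235, and Rplp0 had 72 and 186. Of the 11, 7 lay within 1 kb of the start, and the region listed for Rps10 lay at Nudt3, 11797 bp from the Rps10 start.

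DEAD- and DEAH-box RNA helicases were carried by 7 regions (1.25%, 0.503 to 2.55%), against 0.289% of all regions. After Ddx17 came Ddx42 (100 in mutant and 208 in wildtype), Dhx8 (75 and 190), Ddx18 (60 and 170) and Ddx47 (65 and 156). All 5 of these lay within 1 kb of the start. Mitochondrial ribosomal proteins were carried by 5 regions (0.891%, 0.290 to 2.07%, against 0.465% of all regions), an interval that includes the second share. Mrps15 had 41 in mutant and 195 in wildtype, and Mrpl34 had 69 and 140. Translation initiation factors were carried by 3 (0.535%, 0.110 to 1.55%, against 0.279% of all), and this interval too includes the second share. They were Eif4g2 with 117 in mutant and 242 in wildtype, Eif2b3 as given above, and Eif4b with 72 and 148.

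Proteasome subunits were carried by 3 regions (0.535%, 0.110 to 1.55%, against 0.279% of all), each within 1 kb of the start. They were Psma1 (85 in mutant and 268 in wildtype), Psmd3 (70 and 261) and Psmd6 (50 and 138). DNA repair genes were carried by 3 (0.535%, 0.110 to 1.55%, against 0.141% of all). For both lists the interval includes the share of all regions. Beside the Palb2 region given above, the Ercc2 region had 59 in mutant and 249 in wildtype, and Palb2 had a second region with 40 and 123. Cell cycle genes were carried by 1 (0.178%, 0.00451 to 0.989%, against 0.151% of all), that of Aurka, a mitotic kinase, with 69 in mutant and 243 in wildtype. In these regions wildtype heights were at or above 123, while mutant heights ran from 40 to 89. The rule selected on these heights, and the 561 had medians of 148 in wildtype and 57 in mutant. Nothing particular to these genes is read from that gap.

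Zinc transporters were carried by 4 regions (0.713%, 0.195 to 1.82%, against 0.141% of all), Slc39a10, Slc39a4 at 2 sites (58 in mutant and 212 in wildtype, and 44 and 155) and Slc39a13 (68 and 119). Of the 4, 2 lay within 1 kb of the start. The first Slc39a4 region lay at -9219 bp from its start and at -44 bp from that of Vps28. The second lay at 9366 bp from the Slc39a4 start and at 105 bp from that of Cpsf1. Solute carriers as a whole were carried by 15 (2.67%, 1.50 to 4.37%), against 1.98% of all regions, and the interval of the first share includes the second. Chromatin acetylation genes were carried by 4 (0.713%, 0.195 to 1.82%, against 0.148% of all). Ruvbl2, an ATPase of chromatin remodelling complexes, had 55 in mutant and 135 in wildtype, and Trrap, a scaffold of acetyltransferase complexes, had 52 and 118. Septins were carried by 2 regions (0.357%, 0.0432 to 1.28%, against 0.094% of all), an interval that includes the second share. Sept9 had 66 in mutant and 129 in wildtype.

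Kinesins were carried by 4 regions (0.713%, 0.195 to 1.82%, against 0.248% of all), with Kif17 at 73 in mutant and 190 in wildtype. Genes of Rab GTPases were also carried by 4 (0.713%, 0.195 to 1.82%, against 0.323% of all). Rab2b had 65 in mutant and 173 in wildtype, and Rab12 had 29 and 140. Genes named Tmem were carried by 11 regions (1.96%, 0.983 to 3.48%, against 1.17% of all), with Tmem167b at 63 in mutant and 259 in wildtype. Zinc finger genes named Zfp were carried by 7 regions (1.25%, 0.503 to 2.55%, against 1.18% of all), and 1 of the 7 lay within 1 kb of the start. The highest was Zfp219 with 67 in mutant and 191 in wildtype. For kinesin, Rab, Tmem and Zfp genes alike, the interval includes the share of all regions. Histone cluster genes had 30 regions in all (0.094%) and none among the 561, a number too small to read.

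Genes of the cell types of the cornea had few regions in all, so their counts among the 561 are too small to read. Of 12 corneal epithelium genes with a region, none had one among the 561, and likewise none of 3 leukocyte genes with a region. Regions of the epithelium list made up 0.0691% of all regions, and those of the leukocyte list 0.0220%. Of 7 stromal genes with a region, 1 had one among the 561, the collagen gene Col1a1 with 53 in mutant and 130 in wildtype. Of 6 vessel genes with a region, 1 had one, the endothelial receptor Eng with 96 in mutant and 217 in wildtype at a region 42942 bp from its start. Stromal and vessel genes were each carried by 0.178% of the 561, against 0.0722% and 0.0440% of all regions. Col8a2, a collagen of the corneal endothelium, was assigned the Adprhl2 region (111 in mutant and 240 in wildtype), which lay 35034 bp from the Col8a2 start and 125 bp from that of Adprhl2. Heights are not expression and name no cell type.

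The 2 libraries placed the summit of these regions at nearly the same base. In 261 of the 561 (46.5%, 42.3 to 50.7%) the mutant and wildtype summits were listed at the same position, and in 536 (95.5%, 93.5 to 97.1%) they lay within 32 bp. In shared regions of mean height 60 to under 80 the shares were 38.6% and 89.7% (87.3 to 91.8%). Only 6 regions had summits over 100 bp apart, among them Yipf6 (576 bp), the second Rn18s-rs5 region (448 bp), Egr1 (288 bp) and Dtwd2.

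The regions were long, with a median of 1135 bp against 627 bp over all regions. Called intervals had a median length of 923 bp in mutant and 1076 bp in wildtype, and the mutant interval was the shorter in 409 of the 561 (72.9%), against 65.8% in shared regions of mean height 60 to under 80. Average signal over a region had a median of 15.9 in mutant and 34.8 in wildtype. The average was 0.281 of the peak height in mutant and 0.232 in wildtype at the median, so the libraries differed less by average signal than by height. At the first Rn18s-rs5 region it was 0.650 in mutant and 0.645 in wildtype, the flattest signal in the set.

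Regions of the set seldom lay side by side. In 3 cases a pair stood within 10 kb of each other: the 2 at Rn18s-rs5, 123 bp apart (151 in mutant and 222 in wildtype, and 114 and 202), a pair at the noncoding RNA gene Snhg7 (42 and 122, and 55 and 158), and a pair at Suds3 and Taok3 (53 and 123, and 71 and 259). Chromosome 2 carried 60 of the 561, which is 2.41% of its regions, against 1.76% over the genome, and the X chromosome carried 3 of its 634 regions (0.473%). By the authors' assignment, 8 of the 561 carried a microRNA gene (1.43%, 0.618 to 2.79%), against 1.08% of all regions.

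Regions whose promoter summit held TCGA had the lowest median ratio of the sequence groups. The 40 of the 177 with TCGA had median heights of 52 in mutant and 201.5 in wildtype and a median log2 ratio of -1.78. The 56 with the CTCF core had 53 in mutant and 132.5 in wildtype and a median of -1.30, and the 85 with neither string had 55 and 153 and a median of -1.40. The 3 groups thus had nearly the same mutant median and different wildtype medians. In the windows of lower shared regions the medians were -0.84 with TCGA, -1.12 with the core and -0.66 with neither. The strings were chosen after these windows had been seen, and 4 of the 177 windows held both.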

How the data were processed

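The libraries were 1 mutant, 1 wildtype and 1 input. Reads were aligned with BWA to mm10 (the same assembly as GRCm38), per the submitters' processing notes. For interval calling, duplicates and scaling, settings were not given in the sources used here. Signal values, deposited by the authors, are the peak and average value of each merged region and called interval, per the file headers. Summits, CpG islands, gene assignments and distances are the authors'. The deposited ratio was not used.

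Ratios are log2 of mutant over wildtype height after adding 1 to each. A called interval in both libraries was required of shared regions. Shares carry exact binomial 95% intervals and medians order-statistic ones. Promoter sequences came from RefSeq (GRCm38.p6) and motifs were searched on both strands; 256 of 319 genes matched by identifier. The computations were tested on simulated data. Python 3.11.15, numpy 2.4.6, pandas 2.3.3, scipy 1.17.1 and matplotlib 3.10.9 were used.

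Named genes were the 20 highest regions, the 15 lowest and 15 highest ratios, the 5 regions each side of the threshold, up to 5 regions per gene list, Dstn and Srf; genes with printed sequences, neighbouring pairs, shifted summits and high regions outside the rule were named after their values were seen. The height classes under 80 were set after the values had been seen. A few regions that the rule names are not reported here. The members and the lists were chosen with earlier results of these data known. Alternatives were other height thresholds, averages, pseudocounts, scaling, promoter distances, gene assignments, motif mismatches and windows.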

Additional observations from a re-analysis of the deposited data

How the results depend on the processing

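No paired analysis was possible because there was 1 library per genotype, and for the same reason no library could be left out. A mean height of 100 left 291 regions and of 60 admitted 1280, by construction. The median log2 ratio was -1.04 from average signal, -1.27 with a pseudocount of 5, -0.27 on a common median scale and -1.25 with a mean height of 60. With the same number of regions taken by mutant height it was -1.13, and by wildtype height -1.39; these alternatives and those of the summit windows were chosen after the data had been seen. Regions at least 2-fold lower numbered 310 from average signal, 36 on the common scale and 260 with a mean height of 100. The promoter share was 60.2% within 5 kb and 43.9% in regions taken by mutant height. SRF-linked regions numbered 5 within 1 kb, 6 with a mean height of 100 and 23 with a mean height of 60. The share of promoters with a CArG box was 20.1% with 1 mismatch. Beyond thresholds, scaling and distance, which set these values by construction, the cause was not tested. The other 13 alternatives, including every one for CpG islands and for summit windows, stayed within the counting error or within 1.5 times of a count. The motif search over every assigned gene is void, as 585 of 779 genes (75.1%) matched the promoter table, below 80%; the comparison with promoters of other shared regions is void too (78.8%). Depth is unknown, so no height has a counting error, and the promoter windows cover 177 of the 561 summits.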

Other observations

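Of the 83 regions with no gene assigned by the authors, 6 held a RefSeq gene start with its promoter window. Besides Strbp these included Crybg1, with 73 in mutant and 153 in wildtype, and 4 genes with provisional or antisense names. The 83 regions had median heights of 62 in mutant and 143 in wildtype and a median log2 ratio of -1.26. Of the 83, 76 lay at neither a start nor an island.

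The order of heights was only partly shared by the 2 libraries. Of the 10 highest regions of mutant, 6 were among the 10 highest of wildtype, 62 of the 100 highest were shared, and 336 of the 500 highest. Of the 561, 95 had a mutant height of at least 80.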
